A study of Saccharomyces cerevisiae with 18 samples.

Results

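The transcript response of the swi6 deletion strain of Saccharomyces cerevisiae to linoleic acid hydroperoxide (LoaOOH) was measured on 6 of the 18 Affymetrix arrays of the series. The members were chosen by their labels alone: 3 arrays of LoaOOH-treated deletant cells, set against 3 arrays of untreated deletant cells, over the 5449 yeast genes named by the array's annotation. The other 12 arrays hold LoaOOH-treated and untreated cells, 3 arrays each, of a C404A mutant, whose label names a Swi6 C404A mutation, and of a SWI6 wild type. Every culture was grown in 200 ml of synthetic complete medium without leucine, at 30 °C, to an OD600 of 0.4, and treated aliquots received 30 μM LoaOOH for 45 min. Total RNA, 6 μg per array, was used for labelling. The labels state neither the strain background nor whether replicates came from separate cultures, so the p-values measure only the spread between these arrays.

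LoaOOH is the peroxide formed when linoleic acid, a polyunsaturated fatty acid that yeast takes up but does not make, is oxidised. In yeast, oxidants act through transcription factors that include Yap1, which drives antioxidant genes, and Msn2 and Msn4, which drive a general stress programme. Pdr1 and Pdr3 drive drug efflux pumps, and Oaf1 and Pip2 drive the peroxisomal enzymes that break down fatty acids. Swi6 is the shared subunit of SBF (with Swi4) and MBF (with Mbp1), the complexes that switch on genes of the G1 to S transition. The deletant arrays address which parts of the LoaOOH response occur in cells without Swi6.

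The labels were first checked against SWI6 itself. SWI6 read 3.64, 4.33 and 3.13 log2 units on the deletant LoaOOH arrays and 3.39, 3.23 and 3.72 on the deletant control arrays. All 6 values lie below 4.57, the background level set by probe sets for another organism, while the wild type means were 10.54 with LoaOOH and 10.38 without. The a-cell gene STE2, which encodes the alpha-factor receptor, read 13.87, 13.80 and 13.72 with LoaOOH and 13.81, 13.77 and 13.74 without. None of the 7 a-cell and 4 alpha-cell marker genes passed the limma test between LoaOOH and control. The 259 genes of chromosome V stood above the wild type by a median of 0.79 log2 units in deletant LoaOOH cells and 0.76 in deletant control cells, and in the C404A mutant by 0.715 with LoaOOH and 0.696 without. Both deletant groups carry this excess, and the median response of chromosome V genes was 0.00, as over all genes. Whether the excess alters the response of other genes was not tested. Array medians lay between 10.56 and 10.64 over the 18 arrays.

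Over most genes called in the deletant, the 2 arrays labelled C404A replicate 2 differed in the direction opposite to their labels. Of the 99 genes that rose in the deletant with LoaOOH, 95 read lower on the C404A LoaOOH array numbered 2 than on the control array numbered 2, with a median of -0.19, while 99 and 98 read higher in C404A replicates 1 and 3. Of the 95 genes that fell in the deletant, 91 read higher on that LoaOOH array. POT1, for example, read 10.04, 8.89 and 9.78 in C404A LoaOOH cells, against 6.93, 9.42 and 6.93 in C404A control cells. FTR1 read 10.77, 12.08 and 11.04 with LoaOOH, against 11.94, 11.76 and 12.04. TSA2 read 12.76, 12.82 and 13.63 with LoaOOH, against 10.64, 13.01 and 11.14. Both replicate 2 values lay nearer the other LoaOOH values in POT1 and TSA2, and nearer the other control values in FTR1. In the wild type at most 2 of the 99 genes read lower with LoaOOH in any same-numbered pair. The deletant cannot serve for this comparison, because the genes were chosen by their rise or fall in it. The labels were kept as given. Because the test takes its spread from all 18 arrays, these 2 arrays also bear on the deletant calls. Counts are given with them and, as chosen after seeing the data, without both. The 2 arrays were singled out over genes called in the deletant, so that choice favours a smaller spread at such genes. For POT1 the standard error of the deletant response was 0.541 with them and 0.294 without. Counts without them are therefore no separate check, in any genotype or gene list.

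LoaOOH changed 194 genes in the deletant (3.56% of the 5449 tested), at a Benjamini-Hochberg adjusted p under 0.05 in limma. Of these, 99 rose (1.82%) and 95 fell (1.74%). Without both C404A replicate 2 arrays, the same test called 535 genes (9.82%), 220 higher (4.04%) and 315 lower (5.78%), with all of the 194 among them. Below, a gene rose or fell where it passed with all 18 arrays. Counts in gene lists stand against these shares of all genes: 1.82% and 1.74%, or 4.04% and 5.78% without the C404A replicate 2 arrays. The rises were larger: 29 rising genes exceeded 2-fold, against 3 falling ones. The median rise was 0.67 log2 units, with a range of 0.25 to 2.91. The median fall was -0.41, with a range of -0.21 to -1.31. In each of the 194 genes all 3 LoaOOH arrays lay beyond all 3 control arrays, an arrangement that 13.9% of all genes had upwards and 16.0% downwards. In bulk RNA of a culture, a change in the share of cells in a given state and a change in RNA per cell cannot be told apart.

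With all 18 arrays the calls lay close to the threshold, at adjusted p-values between 0.0249 and 0.0493. Without the C404A replicate 2 arrays the same 194 genes had adjusted p-values between 1.57e-05 and 0.0297. Those arrays were singled out over these same genes, so smaller p-values were built into that choice. With those arrays in the fit, the count rested on all 6 deletant arrays: without LoaOOH replicate 1, LoaOOH replicate 2, control replicate 2 or control replicate 3, the limma fit called 0 genes, with 792, 934, 888 and 1060 genes at an unadjusted p under 0.05. Without LoaOOH replicate 3 it called 59, and without control replicate 1 it called 14. With the C404A replicate 2 arrays left out as well, these fits called 200, 288, 241 and 409 genes without LoaOOH replicate 1, LoaOOH replicate 2, control replicate 2 and control replicate 3. They called 487 without LoaOOH replicate 3 and 375 without control replicate 1. These higher counts carry the same choice of arrays and do not show that the calls are stable. Replicate 3 carries another sample-code prefix (JC) than replicates 1 and 2 (CT), and the labels do not explain it. The 99 risen genes had a median difference of 0.50 within the JC pair and 0.78 within the CT arrays. For 59 of them the JC control was the highest control, and for 9 the JC LoaOOH array was the highest LoaOOH array. The 95 fallen genes had a median of -0.34 within the JC pair and -0.45 within the CT arrays.

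**Figure D1:**
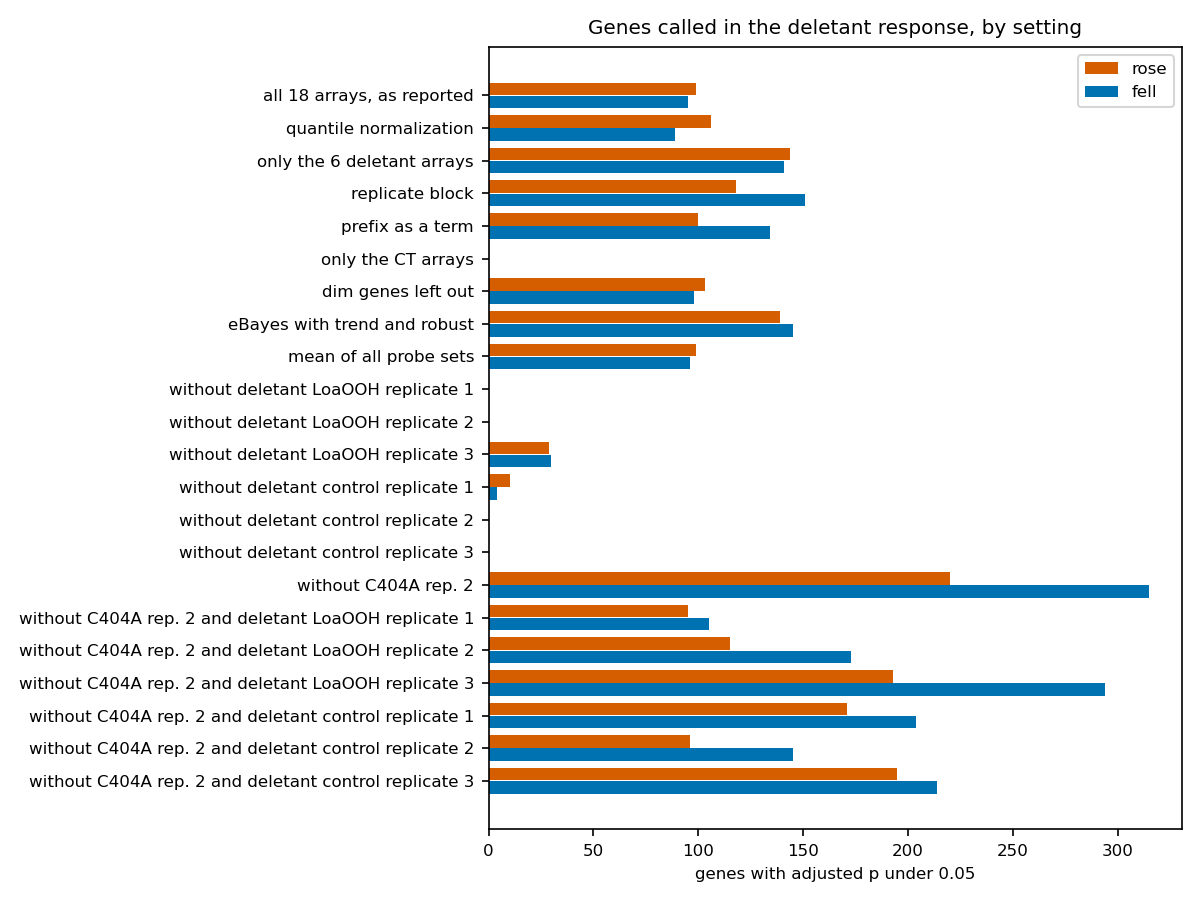
Bars give the number of genes with an adjusted p under 0.05 that rose (orange) or fell (blue) with LoaOOH in the deletant, for the fit of all 18 arrays and each alternative. With all C404A arrays, 4 of the fits that leave out 1 deletant array called no gene, and so did the fit of the CT arrays alone, while the fit without the C404A replicate 2 arrays called 535 and those that also leave out a deletant array called 200 to 487.

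The largest rise among the 194 genes belonged to a peroxisomal enzyme. POT1 (chromosome IX), the 3-ketoacyl-CoA thiolase of fatty acid breakdown, read 10.23, 9.79 and 9.52 log2 units with LoaOOH, against 6.84, 6.54 and 7.43 in control cells. The groups lay over 2 log2 units apart at their nearest arrays, and the fitted difference was 2.91 ± 0.541 (SE), or 7.52-fold, with a limma adjusted p of 0.0281. POX1, the acyl-CoA oxidase that starts the same pathway, read 8.43, 7.93 and 8.18 with LoaOOH, against 5.82, 5.60 and 6.45 in control cells, a 4.66-fold rise. In both genes the JC control was the highest control. Of the 20 measured genes of peroxisomal beta-oxidation, 7 rose and none fell, with a list median of 0.44, beside 0.00 over all genes. Of the 20, 8 passed without the C404A replicate 2 arrays, all higher.

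The other risen members serve the unsaturated fatty acids, acyl activation or redox supply. SPS19, the 2,4-dienoyl-CoA reductase, read 11.28, 11.28 and 11.09 with LoaOOH, against 9.73, 9.86 and 10.08 in control cells, a difference of 1.33 ± 0.258. ECI1, the enoyl-CoA isomerase, read 11.19, 10.96 and 10.91 with LoaOOH, against 9.86, 9.75 and 9.81, a difference of 1.21 ± 0.226. Both enzymes handle double bonds of the kind that linoleic acid carries. FAA2, a fatty acyl-CoA synthetase, rose 1.85-fold, TES1, a thioesterase, rose 1.67-fold, and IDP3, the peroxisomal isocitrate dehydrogenase that yields NADPH, rose 1.57-fold. FAA2 lies on chromosome V, so its level carries the excess in both deletant groups. Members that did not pass include FOX2, the multifunctional enzyme (difference 0.28, limma adjusted p 0.188), CTA1, the peroxisomal catalase (0.47, 0.134), and the carnitine acetyltransferase gene CAT2 (0.64, 0.0558). Of these only CAT2 passed without the C404A replicate 2 arrays, at 0.0168. The beta-oxidation median was 0.22 within the JC pair and 0.54 within the CT arrays.

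Of the 30 peroxins and their regulators, proteins that build peroxisomes and import their enzymes, 3 rose and none fell, with a median of 0.09 (4 and 0 without the C404A replicate 2 arrays). PEX18, which with Pex7 carries the thiolase Pot1 into the peroxisome, read 8.14, 7.89 and 7.96 with LoaOOH, against 6.37, 5.94 and 6.57 in control cells. The difference of 1.70 ± 0.306 is a 3.25-fold rise. PEX5, the import receptor for most peroxisomal enzymes, rose by 0.45 ± 0.0855. PIP2, whose product activates oleate-induced genes, rose by 0.46 ± 0.116. Its partner gene OAF1 differed by 0.02, with a limma adjusted p of 0.89. OLE1, which encodes the fatty acid desaturase, read 10.69, 12.17 and 10.97 with LoaOOH, against 12.10, 12.24 and 12.80. LoaOOH replicate 2 lay among the controls, and the difference of -1.11 ± 0.393 had a limma adjusted p of 0.117 (0.0907 without the C404A replicate 2 arrays).

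**Figure D2:**
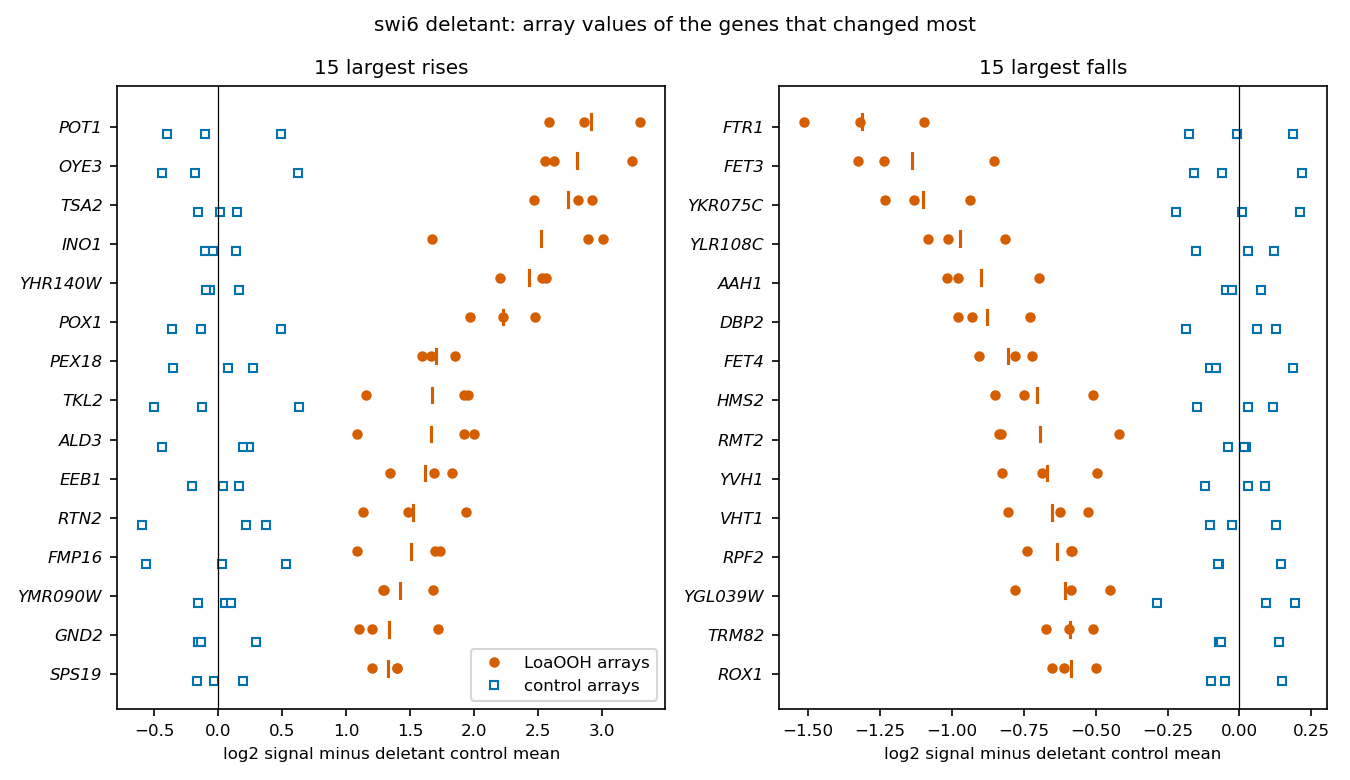
Each mark is 1 deletant array, as log2 signal minus the mean of the deletant control arrays, for the 15 genes with the largest rise (left) and the 15 with the largest fall (right). Circles are LoaOOH arrays with their mean as a bar, and squares are control arrays. POT1 spans 9.52 to 10.23 log2 units with LoaOOH against 6.54 to 7.43 in control, and FTR1 spans 10.66 to 11.08 against 12.002 to 12.363.

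Among the antioxidant genes, large single rises stood beside a list that mostly did not pass. OYE3, an NADPH oxidoreductase of the old yellow enzyme family, read 9.28, 9.96 and 9.35 with LoaOOH, against 6.28, 6.54 and 7.35 in control cells. Its difference was 2.80 ± 0.653, or 6.98-fold (limma adjusted p 0.0381). TSA2, a peroxiredoxin, read 12.66, 13.01 and 13.12 with LoaOOH, against 10.21, 10.04 and 10.34, with a difference of 2.73 ± 0.429. Neither gene's groups overlapped, and the control arrays of TSA2 lay within 0.3 log2 units of each other while those of OYE3 spread over more than 1 log2 unit. Of the 35 genes of the Yap1 antioxidant list, 5 rose and 1 fell, with a median of 0.16, and without the C404A replicate 2 arrays 11 were higher and 1 lower. The risen ones were OYE3, YML131W (1.19 ± 0.292), a putative oxidoreductase gene, GRE2 (1.13 ± 0.264), a methylglyoxal reductase gene, the catalase gene CTT1 and the glutathione transferase gene ECM4 (0.61 ± 0.156). The member that fell was YLR108C, with a difference of -0.97 ± 0.172.

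Several central antioxidant genes did not pass the test with all 18 arrays. TRX2, the thioredoxin gene that is a standard Yap1 target, differed by 0.34 with a limma adjusted p of 0.0644. The peroxiredoxin gene PRX1 differed by 0.83 (adjusted p 0.0677) and the mitochondrial superoxide dismutase gene SOD2 by 0.52 (0.0533). These 3 genes passed without the C404A replicate 2 arrays, at 0.0168, 0.0186 and 0.0076. TRR1 (thioredoxin reductase), GSH1 (glutathione synthesis) and GPX2 (a peroxidase) differed by 0.08, -0.19 and -0.09. OYE2, the close relative of OYE3, differed by -0.02 and YAP1 itself by -0.04, and none of these 5 passed in either fit.

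The general stress list held the most calls of any list. Of its 50 genes, for which Msn2 and Msn4 are the known activators, 21 rose and none fell, and the list median was 0.50, beside 0.00 over all genes. The fit without the C404A replicate 2 arrays called 32, all higher, and there the ribosome biogenesis list held more calls, 60, all lower. TKL2, a transketolase of the pentose phosphate pathway, read 9.93, 9.89 and 9.12 with LoaOOH, against 7.84, 7.47 and 8.60 in control cells. ALD3, a cytosolic aldehyde dehydrogenase, read 10.65, 10.73 and 9.81 with LoaOOH, against 8.97, 8.30 and 8.93. In both, replicate 3 was the lowest LoaOOH array, and the differences were 1.67 ± 0.392 and 1.67 ± 0.415. RTN2, a reticulon of the endoplasmic reticulum, rose 2.87-fold, GND2, a phosphogluconate dehydrogenase, rose 2.53-fold and PAI3, an inhibitor of the vacuolar protease Pep4, rose 2.37-fold. CTT1, the cytosolic catalase that removes hydrogen peroxide, read 12.22, 11.74 and 11.40 with LoaOOH, against 10.70, 10.14 and 10.80, a 2.36-fold rise. HSP12, a small membrane-stabilising heat shock protein, read 14.44, 14.46 and 14.37 with LoaOOH, against 13.79, 13.29 and 13.48. Its 3 LoaOOH arrays lay within 0.1 log2 units of each other, and the difference was 0.90 ± 0.141.

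The stress list moved less within the JC pair than within the CT arrays, with medians of 0.30 and 0.57. The transcripts of the activators differed little, by 0.13 for MSN2 and 0.08 for MSN4, and neither passed in either fit. Of 30 chaperone genes driven by Hsf1, 2 rose (6.67%) and 1 fell (3.33%), beside 1.82% and 1.74% of all genes. Their median was 0.02, and without the C404A replicate 2 arrays 3 were higher and 2 lower. SSE2, a nucleotide exchange factor of Hsp70, rose 1.62-fold and SSA4, a stress-inducible Hsp70 that is also on the general stress list, rose 1.54-fold. SSA4 lies on chromosome V, whose genes carry an excess in both deletant groups. FES1, another exchange factor gene, fell by 0.28 on the log2 scale. The pentose phosphate list of 13 genes held 3 rises, TKL2, GND2 and SOL4, all of which are on the general stress list too. None of the 37 proteasome genes passed, and RPN4, which encodes their activator, differed by -0.02.

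Drug efflux genes also rose. Of 25 genes of the Pdr1 and Pdr3 list, 7 rose and none fell, and the median was 0.41. In the fit without the C404A replicate 2 arrays 12 passed, all higher. PDR5, the main multidrug ABC transporter of the plasma membrane, read 13.02, 13.08 and 13.14 with LoaOOH, against 12.18, 12.33 and 12.41 in control cells. The difference of 0.77 ± 0.176 is a 1.71-fold rise. TPO4, a polyamine exporter, read 11.94, 11.78 and 12.01 with LoaOOH, against 10.64, 10.70 and 10.94, a 2.22-fold rise. YOR1, an ABC transporter for oligomycin and organic anions, read 12.27, 12.23 and 12.24 with LoaOOH, against 11.30, 11.21 and 11.52, a 1.87-fold rise. PDR16, a phosphatidylinositol transfer protein, rose by 0.67, the regulator gene PDR3 by 0.51 and IPT1, the last enzyme of sphingolipid synthesis, by 0.42. GRE2 is on this list as well. PDR15 (difference 1.05, limma adjusted p 0.0964), SNQ2 (0.22, 0.111) and PDR1 (-0.02) did not pass with all 18 arrays. PDR15 and SNQ2 passed without the C404A replicate 2 arrays, at 0.049 and 0.0187. The list median was 0.20 within the JC pair and 0.43 within the CT arrays.

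**Figure D3:**
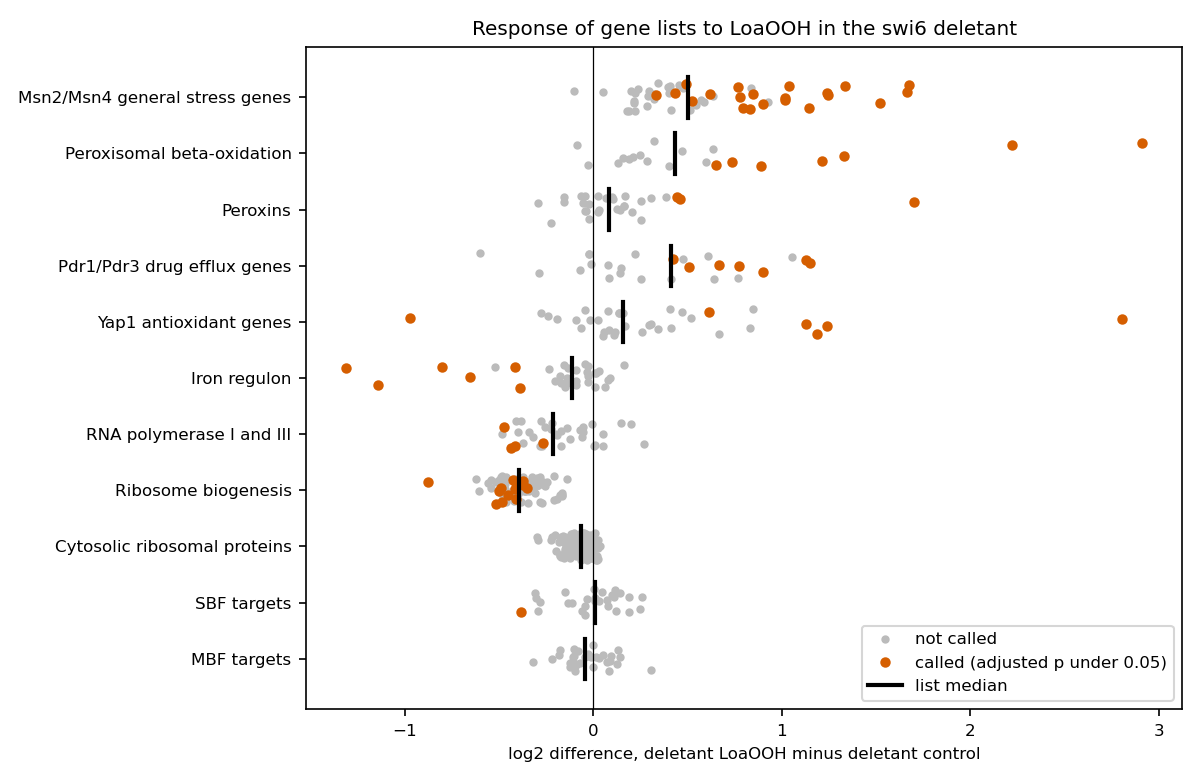
Each dot is 1 gene of a list, placed at its log2 difference between deletant LoaOOH and deletant control, in orange where called, with the list median as a black bar. The medians run from 0.50 for general stress genes to -0.39 for ribosome biogenesis, and those of SBF and MBF targets lie at 0.01 and -0.04.

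Genes outside the main stress lists included several with the largest rises. INO1, the rate-limiting enzyme of inositol synthesis, read 12.29, 10.95 and 12.17 with LoaOOH, against 9.18, 9.42 and 9.24 in control cells. LoaOOH replicate 2 lay over 1 log2 unit below its companions and still above every control, and the difference was 2.52 ± 0.519, or 5.75-fold. Only INO1 and OPI3, a phospholipid methyltransferase gene (1.29-fold), rose among 20 phospholipid genes, and none fell. YHR140W, which encodes a membrane protein of unknown function, read 10.17, 10.14 and 9.81 with LoaOOH, against 7.77, 7.55 and 7.51, with a difference of 2.43 ± 0.360. EEB1, an acyl transferase that makes medium-chain ethyl esters, rose 3.07-fold, and FMP16 and YMR090W rose 2.84-fold and 2.68-fold. HSP31, a methylglyoxalase and chaperone, rose 2.31-fold. In the oxidative phosphorylation list of 64 genes, SDH6 rose 1.55-fold and none fell, with a median of 0.17 (5 and 0 without the C404A replicate 2 arrays).

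Among the called genes, 2 iron uptake genes gave the largest falls. FTR1, the high-affinity iron permease, lies on chromosome V, so its level carries the excess in both deletant groups. It read 10.66, 10.86 and 11.08 with LoaOOH, against 12.002, 12.363 and 12.168 in control cells. The difference was -1.31 ± 0.258, or 2.48-fold lower with LoaOOH, with a limma adjusted p of 0.0281. FET3, the multicopper oxidase that works with Ftr1, read 10.48, 10.87 and 10.39 with LoaOOH, against 11.66, 11.94 and 11.56, or 2.20-fold lower. FET4, a low-affinity iron transporter, read 8.41, 8.53 and 8.59 with LoaOOH, against 9.21, 9.50 and 9.23. In these 3 genes the groups did not overlap. The list of 32 iron regulon and related iron and biotin genes held 6 falls and no rise, and its median was -0.11, with the same counts without the C404A replicate 2 arrays. The other falls were VHT1, a biotin transporter (-0.65), ISU2, an iron-sulfur scaffold (-0.41), and MRS4, a mitochondrial iron carrier (-0.39). The siderophore genes FIT2 and ARN1, on the same list, differed by 0.16 and -0.14, and the iron regulator gene AFT1 by -0.18. None of these last 3 passed in either fit. Larger negative differences that did not pass with all 18 arrays, chosen after their values were seen, were those of INA1 (-1.66, limma adjusted p 0.171) and the fatty acyl-CoA synthetase gene FAA4 (-1.39, 0.0551). FAA4 passed without the C404A replicate 2 arrays, at 0.0163, and INA1 did not.

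Genes for making ribosomes shifted down together, by small amounts. Of 83 ribosome biogenesis genes, 13 fell (15.7%, beside 1.74% of all genes) and none rose. Without the C404A replicate 2 arrays 60 were lower, where 5.78% of all genes were. All 83 differences were negative, and the list median was -0.39. For 71 genes the 3 LoaOOH arrays all lay below the 3 control arrays, an arrangement that 16.0% of all genes had. DBP2, an RNA helicase, read 10.91, 10.96 and 11.16 with LoaOOH, against 11.95, 12.02 and 11.70 in control cells, a difference of -0.88 ± 0.176. RIX1, a factor of large-subunit assembly, differed by -0.51 ± 0.122. IMP4, a component of the small-subunit processome, read 10.66, 10.80 and 10.87 with LoaOOH, against 11.26, 11.29 and 11.29. In IMP4 the lowest values came from LoaOOH replicate 1, as they did for 60 of the 95 fallen genes. The assembly factor genes RLP7, RLP24 and NOP2 had differences of -0.49, -0.48 and -0.45. The biogenesis median was -0.25 within the JC pair, where 12 of the 83 differences were positive, and -0.47 within the CT arrays.

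Of 36 genes for subunits of RNA polymerases I and III and their factors, which transcribe ribosomal and transfer RNA, 4 fell and none rose, with a median of -0.21, and without the C404A replicate 2 arrays 10 were lower. RPA135, the second-largest subunit of polymerase I, read 11.99, 12.18 and 12.21 with LoaOOH, against 12.65, 12.62 and 12.52. RPA49, RPC40 and RPO31 differed by -0.43, -0.41 and -0.26. MAF1, a repressor of polymerase III, differed by 0.27 and did not pass. Of the 128 cytosolic ribosomal protein genes none passed in either direction, with a median of -0.06 and 116 negative differences. None of the 66 mitochondrial ribosomal protein genes passed, with a median of 0.07. When the C404A replicate 2 arrays were left out, 4 of the cytosolic genes were lower and 1 of the mitochondrial genes was higher. Of 20 purine genes 3 fell. AAH1, adenine deaminase, read 10.31, 10.27 and 10.60 with LoaOOH, against 11.24, 11.37 and 11.27, and IMD4 and GUA1, enzymes of guanine nucleotide synthesis, fell by 0.52 and 0.37 on the log2 scale.

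Other large falls lay outside these groups. YKR075C read 8.44, 8.54 and 8.74 with LoaOOH, against 9.46, 9.88 and 9.68 in control cells, a difference of -1.10 ± 0.199. ROX1, which encodes the repressor of hypoxic genes, differed by -0.59 ± 0.114. HMS2, a gene of an Hsf1-like factor, and RMT2, a gene of an arginine methyltransferase that modifies a ribosomal protein, both differed by -0.70. YVH1, a phosphatase gene needed in large-subunit maturation, differed by -0.67, and RPF2, a large-subunit assembly gene, by -0.64 ± 0.105. TRM82, a subunit of a tRNA methyltransferase, differed by -0.59.

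Few genes of the G1 to S transition passed, as over all genes. Of 28 SBF targets none rose and 1 fell, with a median of 0.01, beside 1.82% and 1.74% over all genes. The gene that fell was SRL1, a cell wall mannoprotein gene, which read 13.03, 13.16 and 13.27 with LoaOOH, against 13.48, 13.60 and 13.53. None of the 33 MBF targets passed, with a median of -0.04. In the wild type none of either list passed, with medians of -0.07 for both, and in the C404A mutant the medians were 0.00 and -0.05. In the deletant, 2 SBF targets and no MBF target passed without the C404A replicate 2 arrays. The G1 cyclin gene CLN2 read 11.09, 11.34 and 11.03 with LoaOOH, against 10.86, 10.93 and 10.90. Its groups did not overlap, but the difference of 0.26 ± 0.101 had a limma adjusted p of 0.157. CLN1 differed by 0.19, CLN3 by -0.01, PCL1 by 0.12, CLB5 by -0.22, CLB6 by 0.13 and RNR1, the ribonucleotide reductase gene, by 0.00. The partner genes SWI4 and MBP1 differed by 0.31 and 0.21. None of these 9 genes passed, in either fit. Of the 9 core histone genes, 17 genes of the CLB2 cluster and 17 M/G1 genes, none passed.

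The number of genes called in cells that carry Swi6 depended on the fit. In the C404A mutant no gene passed (0.0% of 5449, with 319, or 5.85%, at an unadjusted limma p under 0.05), and in the wild type 14 did (0.257%, with 1027, or 18.8%, unadjusted), 9 rising (0.165%) and 5 falling (0.0918%). With the replicate number as a block the wild type count was 1, and with trend and robust moderation it was 107. Without the C404A replicate 2 arrays, 217 genes passed in the C404A mutant (3.98%), 92 higher (1.69%) and 125 lower (2.29%). In the wild type 479 then passed (8.79%), 179 higher (3.29%) and 300 lower (5.51%). Of the 194 genes called in the deletant, 94 then passed in the C404A mutant and 153 in the wild type. The 2 arrays were singled out over these same 194 genes, and the C404A count is raised by that choice. The spread at these genes is shared by all groups, so the same choice favours their deletant and wild type calls. Of the 14 wild type genes called with all arrays 13 were also called in the deletant, which is 13 of its 194. The remaining one, YGR174W-A, differed by 0.43 in the deletant (limma adjusted p 0.0558) and 0.73 in the wild type. The median spread of replicates was 0.0845 and 0.112 log2 units in LoaOOH and control arrays of the deletant, 0.151 and 0.115 in those of the C404A mutant, and 0.0944 and 0.0969 in those of the wild type.

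A longer list of calls does not show a different response, so the difference of the responses was tested. No gene passed for the deletant response minus the wild type response (0.0%, with 20 genes, or 0.367%, at an unadjusted limma p under 0.05). None passed for the deletant response minus the C404A response (0.0%, with 107 genes, or 1.96%, at an unadjusted p under 0.05). Without the C404A replicate 2 arrays both counts were again 0, with 26 and 73 genes at an unadjusted limma p under 0.05. The median standard error of such a difference was 0.144 log2 units, so small differences were not detectable with 3 arrays a group. The unadjusted shares of 0.367% and 1.96% lay below the 0.05 expected if no response differed, so the test was conservative. Same-numbered wild type arrays correlated at 0.856, 0.502 and 0.640, and this fit does not use that. With the replicate number as a block, 72 (wild type) and 240 (C404A) genes had an unadjusted limma p under 0.05, and none passed. A count of 0 therefore does not show that the responses are equal. Between deletant and wild type the chromosome V excess goes with the deletion, so the 2 cannot be told apart in that difference. The C404A mutant carries a similar excess over the wild type, with medians of 0.715 with LoaOOH and 0.696 without. TSA2 had a response of 2.73 in deletant cells and 1.63 in wild type cells. The 95% interval of the difference ran from -0.19 to 2.40. The TSA2 control means were 10.19 (deletant) and 11.41 (wild type), and the LoaOOH means 12.93 and 13.04. INO1 had responses of 2.52 (deletant) and 1.46 (wild type), with an interval of -0.50 to 2.63. Its control means were 9.28 and 11.33, and its LoaOOH means 11.80 and 12.78. HSP12, singled out after its values were seen, had responses of 0.90 and 0.37. All 3 genes started lower in the deletant, and a bearing of that start on the response was not tested. The highest value of any probe set was 14.99, and whether a signal ceiling bears on HSP12 was not tested. HSP12 went from control means of 13.52 and 14.11 to LoaOOH means of 14.42 and 14.48. Its interval of 0.10 to 0.95 lay above 0, with an unadjusted limma p of 0.0187 and an adjusted p of 1.0. Without the C404A replicate 2 arrays the unadjusted limma p of the difference was 0.00452 for TSA2 and 0.00817 for HSP12, and both adjusted p-values were 1.0.

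The gene lists were set side by side for the 4 with the largest deletant medians and the Yap1 list. Each C404A median is given for all its arrays and, after it, without the replicate 2 arrays. The general stress median was 0.50 in deletant cells, 0.23 and 0.42 in C404A cells, and 0.42 in wild type cells. Beta-oxidation had medians of 0.44 in deletant cells, 0.23 and 0.47 in C404A cells, and 0.40 in wild type cells. The drug efflux list had medians of 0.41 in deletant cells, 0.21 and 0.29 in C404A cells, and 0.29 in wild type cells. Ribosome biogenesis had medians of -0.39 in deletant cells, -0.22 and -0.40 in C404A cells, and -0.39 in wild type cells. The Yap1 antioxidant median was 0.16 in deletant cells, 0.20 and 0.33 in C404A cells, and 0.19 in wild type cells. The C404A medians of the first 4 lists lay within 0.1 log2 units of the wild type medians when its replicate 2 arrays were left out. These lists hold genes over which those arrays were singled out, so this nearness is no separate check. No test of the medians was made. The 3 responses share no arrays. All 99 risen genes had a positive difference in the C404A mutant and in the wild type, with medians of 0.30 and 0.56, and of the 95 fallen genes 93 and 95 had a negative one. Without the replicate 2 arrays the C404A median of the 99 genes was also 0.56. Those arrays were singled out by their values over these same genes, so a higher median was built into that choice. Over all genes, 76.8% had the same sign in the deletant and the C404A mutant (78.8% without its replicate 2 arrays), and 83.5% in the deletant and the wild type. Because the 194 genes were chosen by their deletant difference, its size relative to the other genotypes is raised by that choice.

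**Figure D4:**
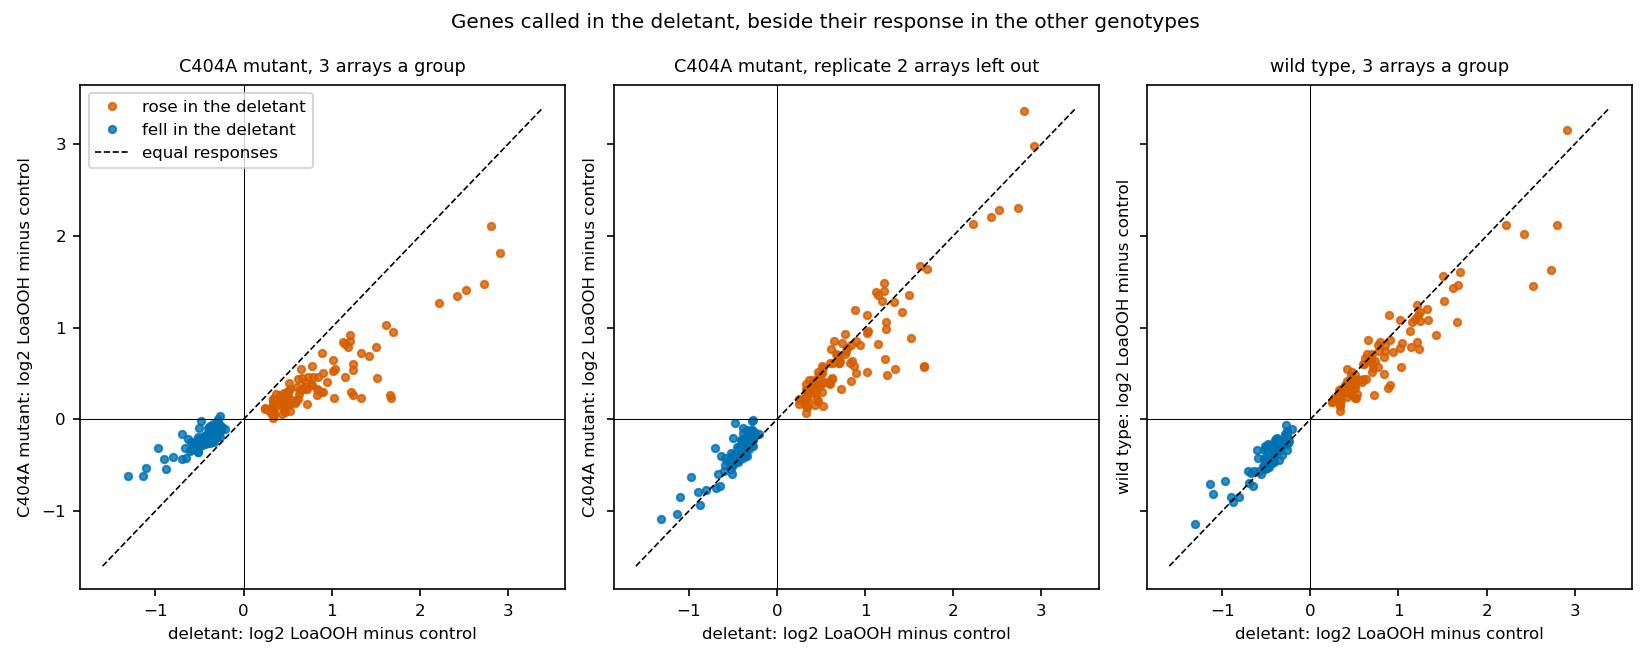
Each point is 1 of the 194 genes called in the deletant, with its log2 difference between LoaOOH and control in the deletant on the x axis and in another genotype on the y axis: the C404A mutant with all arrays (left), the C404A mutant without its replicate 2 arrays (middle) and the wild type (right). For the 99 risen genes the median on the y axis is 0.30 with all C404A arrays and 0.56 without replicate 2. For the 95 fallen genes it is -0.20 and -0.34. The replicate 2 arrays were singled out over these same genes.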

How the data were processed

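The deposited table holds 1 value per probe set and array on a log2 scale, which the authors made with Affymetrix Expression Console and the PLIER summary, per the submitters' processing notes. Nothing read for this work states their versions, settings or normalization. The log2 base was taken from the range of 2.47 to 15.0. Arrays hold no read depth, so their number limits precision. Of 10928 probe sets, 5498 name 1 yeast gene, 1746 belong to another organism on the same array, 213 are controls and 3470 have no name in the annotation used. For the 47 genes with more than 1 probe set, the one without a suffix letter was taken first, then the one with the higher mean. The background level is the 95th percentile of the other organism's values, and 61 of the 5449 genes had a mean below it. They stayed in the test.

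The values were fitted as deposited with limma 3.58.1 in R 4.3.3, with 6 group means over all 18 arrays and moderated tests (14.8 degrees of freedom), two-sided, Benjamini-Hochberg adjusted over 5449 genes at 0.05. The median standard error of the deletant response was 0.102. The 37 gene lists were matched by symbol, synonym or systematic name, and 21 entries found no gene. The lists and the genes in them were chosen with earlier results of these data known, and lists are described by counts and medians alone. Named genes are the 15 largest rises and 15 largest falls among called genes, up to 6 called members of a list, and a fixed set of regulators and targets. Some other members are given as examples. Alternatives were quantile normalization, the deletant arrays alone, the CT arrays alone, the sample-code prefix as a term, a replicate block, dim genes left out, another variance moderation, the mean of probe sets, and each array left out in turn. The fits without both C404A replicate 2 arrays were added after seeing the data. Deviations of same-numbered arrays correlated at 0.856, 0.502 and 0.640 in the wild type and at 0.115, 0.182 and 0.605 in the C404A mutant. Sequences were not used here.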

Additional observations from a re-analysis of the deposited data

Results flagged for a closer look

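CYC1, which encodes cytochrome c, had all 3 LoaOOH arrays below the 3 control arrays in the deletant, and above them in C404A cells. It passed the test in neither. It was picked by this arrangement, so the p-values below come from values used in the choice. It read 10.84, 10.86 and 10.87 log2 units in deletant LoaOOH cells, against 10.89, 11.06 and 11.17 in deletant control cells. In the C404A mutant it read 11.62, 11.57 and 11.62 with LoaOOH, against 11.49, 11.48 and 11.12 without. Without the C404A replicate 2 arrays, the deletant response minus the wild type response had an unadjusted limma p of 0.921. The difference of the responses, deletant minus C404A, was -0.42 ± 0.151 (SE), with an unadjusted limma p of 0.0142 and an adjusted p of 0.999, so it does not pass over all genes.
Without the C404A replicate 2 arrays the difference was -0.50, with an unadjusted limma p of 0.0129 and an adjusted p of 1.0.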

How the results depend on the processing

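The count of 194 genes called in the deletant was 535 without both C404A replicate 2 arrays, 0 with the CT arrays alone, where 1120 genes had an unadjusted limma p under 0.05, and between 0 and 59 when 1 deletant array was left out. With those C404A arrays left out too, leaving out 1 deletant array gave between 200 and 487 (375 and 409 without control replicates 1 and 3). Those arrays were singled out over genes called in the deletant, so the higher counts are no separate check. The count was 285 with the 6 deletant arrays alone, 284 with trend and robust moderation, 234 with the prefix as a term, 201 without dim genes, and 195 with quantile normalization or with the mean of probe sets. The CT fit holds fewer arrays, C404A replicate 2 among them. With the replicate number as a block 269 genes were called, 118 higher and 151 lower, of which 120 were among the 194. The numbers were not taken as pairs in the deletant: deviations of same-numbered arrays correlated at 0.264, 0.250 and 0.0548, the last under 0.1, though each deletant LoaOOH array correlated best with its own number. In the wild type each did so too, with every correlation above 0.5, and in the C404A mutant replicates 1 and 2 did not. No gene passed for either difference of responses under any setting, with 72 (wild type) and 240 (C404A) at an unadjusted limma p under 0.05 with the block. Of the 35 named genes that passed, 33 did so with quantile normalization, 25 with the block, 5 without control replicate 1 and 20 without LoaOOH replicate 3. None changed direction. TRX2 passed at adjusted p 0.0437 with the deletant arrays alone, 0.042 with trend and robust moderation, and 0.0168 without the C404A arrays. In the C404A mutant 183 genes passed without its LoaOOH replicate 2 alone and 14 without its control replicate 2 alone.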

Other observations

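Of the 99 risen genes 51, and of the 95 fallen genes 66, were on none of the 37 lists. The genes named here were chosen after their values were seen. Among the rises were several oxidoreductases and redox enzymes. GCY1, a glycerol dehydrogenase gene of the aldo-keto reductase family, read 12.23, 12.03 and 11.70 log2 units with LoaOOH, against 11.13, 10.93 and 11.37 in control cells. GTT1, a glutathione transferase gene, read 12.67, 12.88 and 12.71 with LoaOOH, against 12.11, 12.21 and 12.29. The glutaredoxin gene GRX1 rose by 0.46 ± 0.101 and MCR1, a mitochondrial cytochrome b5 reductase gene, by 0.45 ± 0.102. ZTA1, a quinone reductase gene, ARI1, an aldehyde reductase gene, and GLO1, the glyoxalase I gene, had differences of 0.42, 0.39 and 0.35. PLN1, which encodes a lipid droplet protein, rose by 0.72, and the autophagy genes ATG17 and ATG38 rose by 0.51 and 0.33.

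The unlisted falls held further genes of ribosome and tRNA work. KRE33, which acetylates ribosomal RNA of the small subunit, read 10.81, 11.02 and 11.11 with LoaOOH, against 11.42, 11.49 and 11.52 in control cells. NMD3, the export adaptor of the large subunit, read 11.79, 11.91 and 12.07 with LoaOOH, against 12.52, 12.43 and 12.22. In both, LoaOOH replicate 1 was the lowest array. MES1 and ALA1, the methionyl- and alanyl-tRNA synthetase genes, fell by 0.37 and 0.28 on the log2 scale. LOS1, which exports tRNA from the nucleus, fell by 0.27, and TEF4, a translation elongation factor gene, by 0.27. URA7, the CTP synthase gene, fell by 0.56 and FUR1, the uracil salvage gene, by 0.52.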
